A study of Mus musculus with 6 samples.

Results

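Integrins are cell surface receptors made of 1 alpha and 1 beta subunit that tie the extracellular matrix to the cytoskeleton. Laminins are secreted trimers of an alpha, a beta and a gamma chain and form the adhesive sheet of basement membranes, where many integrins bind them. In skeletal muscle the laminin alpha chain encoded by *Lama2* and the integrin subunit encoded by *Itga7* are the classic pair that anchors the muscle fibre, and muscle progenitors lie directly against this matrix. All genes of both families that the array names were taken by their symbols: the integrin alpha genes (*Itga* followed by a number or a single letter), the integrin beta genes (*Itgb* 1 to 8) and the laminin chain genes (*Lama*, *Lamb* and *Lamc*). This gave 36 probe sets for 35 genes, of 22180 genes measured: 17 integrin alpha, 8 integrin beta and 10 laminin genes. *Itgav* alone had 2 probe sets. *Itga10* was not analysed here.

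The first group was Pax7-GFP cells, which mouse embryonic stem (ES) cell lines with a green fluorescent reporter of the muscle progenitor gene *Pax7* gave after 3 weeks of myogenic differentiation, and which were sorted by flow cytometry (3 samples). The other group was undifferentiated, pluripotent mouse ES cells (3 samples). The gate for GFP was drawn against the undifferentiated culture of the same line, and the labels name neither the ES line nor the strain. RNA was amplified in 2 cycles and hybridised to single-colour microarrays, 1 array per sample, and levels are log2 signals.

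The median signal of an array ranged from 5.61 to 5.69. All 11 skeletal muscle markers, *Pax7* among them, were higher in Pax7-GFP cells and all 8 pluripotency markers were lower, which fits the labels. Markers of other cell types moved apart. Of 8 fibroblast markers 5 were higher and 0 lower, and their mean level was 8.20 to 8.66 over the Pax7-GFP arrays, against 6.37 to 6.64 over the ES arrays. Their largest rise was that of *Fap*, a fibroblast surface protease, at 4.29. Of 8 endothelial markers 1 was higher (*Cdh5*, an endothelial cadherin, at 1.41) and 1 lower (*Pecam1*, at -2.43), with mean levels of 5.47 to 5.58 in Pax7-GFP cells and 5.68 to 5.70 in ES cells. Of 10 haematopoietic markers 0 were higher and 2 lower, led by *Laptm5* at -2.81, with mean levels of 5.19 to 5.36 in Pax7-GFP cells and 5.59 to 5.63 in ES cells. Epithelial, extraembryonic endoderm, smooth muscle and neural crest markers had 1, 2, 2 and 0 members higher and 2, 0, 1 and 1 lower, of 7, 8, 5 and 5 measured. Their largest changes were *Krt8* at 1.29 and *Epcam* at -4.53, *Dab2* at 1.52, *Acta2* at 1.53 and *Cnn1* at -2.18, and *Foxd3* at -1.69. In either direction 62.5% of fibroblast, 25% of endothelial and 20% of haematopoietic markers were called, against 14.5% of all genes. For epithelial, extraembryonic endoderm, smooth muscle and neural crest markers the share was 42.9%, 25%, 60% and 20%. These lists are short. The part of any of these cell types in the results below was not tested. In bulk samples, fewer cells of a type and less RNA per cell cannot be told apart.

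Pax7-GFP cells carried high signals of the muscle laminin chain gene *Lama2* and of the muscle integrin gene *Itga7*, and lower signals of the early embryonic laminin chain gene *Lama1* than ES cells. A gene was called when its limma p, adjusted by Benjamini-Hochberg over all genes, was under 0.05 and its difference at least 2-fold. By this rule 9 of the 35 genes rose (*Lama2*, *Itga7*, *Lamb1*, *Itga4*, *Lama4*, *Itga1*, *Itga2*, *Itgb8* and *Itga8*), 2 fell (*Lama1* and *Lama3*) and 24 were not called. The share called was 31.4%, against 14.5% of all genes tested. In the direction of a rise it was 25.7%, against 7.34% of all genes, and in the direction of a fall 5.71%, against 7.15%. Of the 24 genes not called, 8 had an adjusted p under 0.05 but less than a 2-fold difference, so that 19 of the 35 genes were under that p, as were 41.1% of all genes. At least 4-fold differences were found in 7 of the 35 genes (*Lama2*, *Itga7*, *Lamb1*, *Itga4*, *Lama4*, *Itga1* and *Lama1*), against 4.55% of all genes. Of these 6 were higher, against 2.42% of all genes, and 1 lower, against 2.13%. The same number passed a limma test against a 2-fold difference, as did 7.72% of all genes. Groups did not overlap in 13 genes with Pax7-GFP cells higher and in 7 with Pax7-GFP cells lower, against 26.2% and 25.6% of all genes. The median log2 difference was 0.12 over the 35 genes and 0.02 over all genes.

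**Figure D1:**
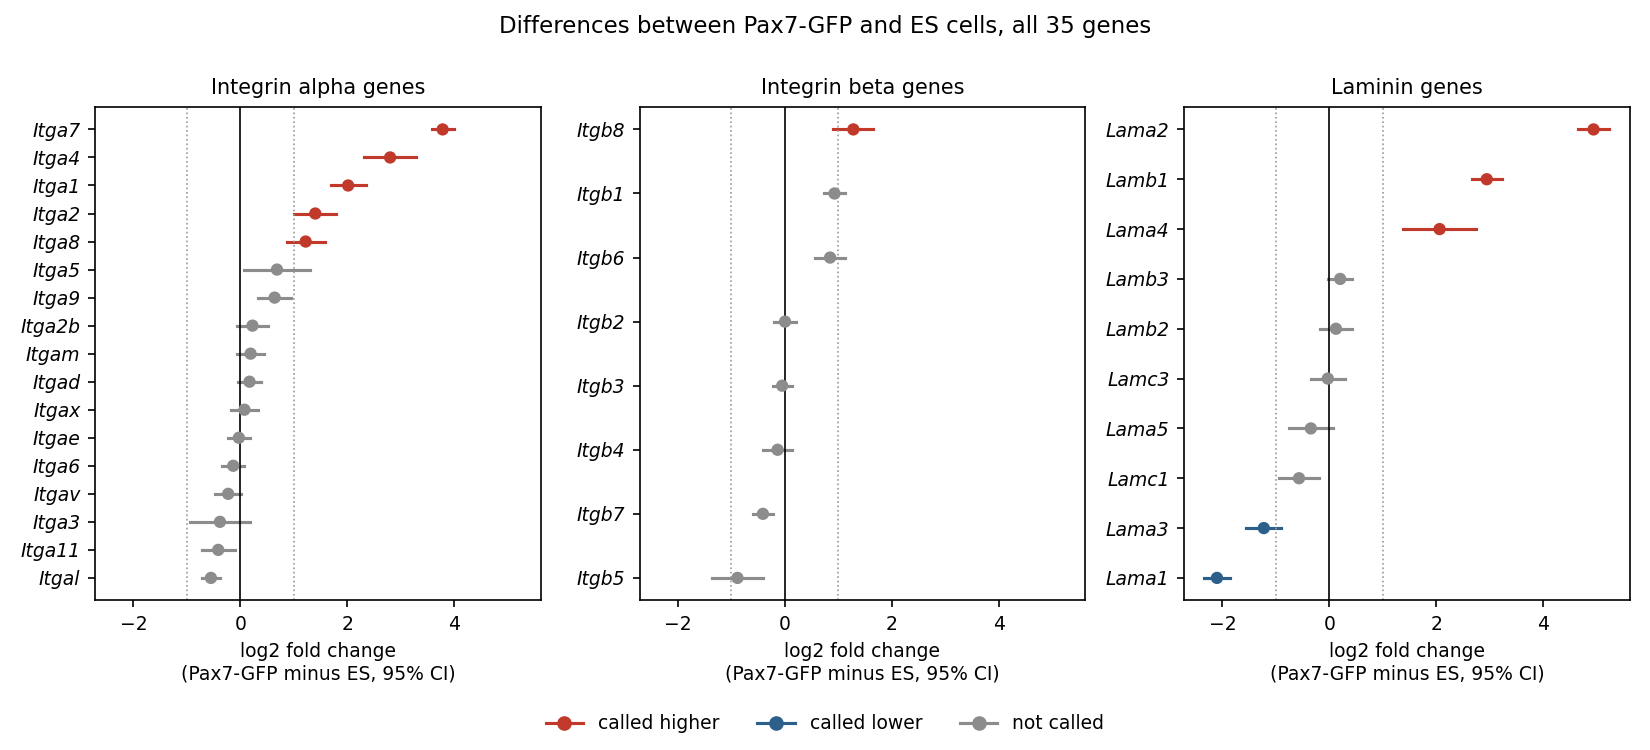
Log2 fold change of each of the 35 genes, Pax7-GFP minus ES, with its 95% confidence interval from limma (n = 3 arrays per group). Dotted lines mark a 2-fold difference. The called rises run up to 4.94 for *Lama2*, and the 2 called falls are both laminin alpha chains.

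Promoter sequence was available for 22 of the 35 genes, from RefSeq's annotation of mouse build GRCm38.p6, 7 of them among the 9 that rose and 0 among the 2 that fell. The 250 bases before the annotated start are shown for the 4 genes of largest rise that had an entry. *Itga7* and *Lama4* had none. These 4 windows are shown because they differ in base composition, and a shared regulation of the genes was not tested. Capitals mark each CANNTG, the letters of an E-box, to which myogenic factors of the MyoD family can bind. The *Lama2* window is chr10:27616943-27617192 on the minus strand, that of *Lamb1* is chr12:31265043-31265292 on the plus strand, that of *Itga4* is chr2:79255176-79255425 on the plus strand, and that of *Itga1* is chr13:115101965-115102214 on the minus strand.
Lama2: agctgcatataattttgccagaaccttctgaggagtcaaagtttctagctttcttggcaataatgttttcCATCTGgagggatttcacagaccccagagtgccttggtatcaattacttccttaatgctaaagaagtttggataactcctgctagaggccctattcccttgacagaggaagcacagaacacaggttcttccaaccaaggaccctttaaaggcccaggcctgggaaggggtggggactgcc
Lamb1: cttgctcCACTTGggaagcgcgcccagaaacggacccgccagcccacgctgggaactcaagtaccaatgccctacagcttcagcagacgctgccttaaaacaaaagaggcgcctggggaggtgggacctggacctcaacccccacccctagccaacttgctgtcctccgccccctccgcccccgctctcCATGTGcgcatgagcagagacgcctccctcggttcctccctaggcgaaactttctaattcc
Itga4: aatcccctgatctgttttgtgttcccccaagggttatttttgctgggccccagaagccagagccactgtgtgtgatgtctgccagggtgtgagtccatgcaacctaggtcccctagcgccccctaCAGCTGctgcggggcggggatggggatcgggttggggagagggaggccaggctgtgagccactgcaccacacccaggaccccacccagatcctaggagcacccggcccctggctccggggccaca
Itga1: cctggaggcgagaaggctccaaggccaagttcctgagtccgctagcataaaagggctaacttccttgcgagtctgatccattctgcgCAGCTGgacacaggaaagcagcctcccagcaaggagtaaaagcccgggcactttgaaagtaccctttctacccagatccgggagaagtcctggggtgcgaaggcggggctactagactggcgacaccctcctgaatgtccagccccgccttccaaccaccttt

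The *Lama2* window held 0 CpG dinucleotides and 47.2% G and C, whereas the *Lamb1* window held 14 CpG and 62.0% G and C. *Itga4* and *Itga1* lay between them in CpG number, with 6 and 10. Each window held at least 1 CANNTG, read the same on both strands. It was the form CAGCTG in *Itga4* and *Itga1*, CATCTG in *Lama2*, and CACTTG and CATGTG in *Lamb1*. Such letters are common: 66.2% of all 32851 promoter windows of this length held a CANNTG and 13.0% a CAGCTG, against 6 and 2 of the 7 windows of genes that rose. The 18 windows of integrin and laminin genes not called had similar shares, 83.3% and 22.2%, against 85.7% and 28.6% of those 7. CAGCTG is itself a CANNTG, so the motifs overlap. GGGCGG, the GC box, read on both strands, was present in 2 of those 7 windows and in 32.7% of all. A match describes the letters in this window and is no binding site shown here.

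Laminin alpha chains set the receptor a laminin binds, and here they moved in both directions. Of 5 alpha chain genes, 2 rose, 2 fell and 1 was not called, a share called of 80%, against 14.5% of all genes. *Lama2*, the alpha chain of muscle basement membrane whose loss causes congenital muscular dystrophy, had signals of 10.59, 10.39 and 10.43 in Pax7-GFP cells, against 5.32, 5.48 and 5.79 in ES cells. The groups lay far apart, with an SD of 0.10 in Pax7-GFP cells and 0.24 in ES cells. The difference was 4.94 on the log2 scale (SE 0.13), or 30.7-fold, the largest among the 35 genes (limma, adjusted p = 5.08e-08).

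*Lama4*, an alpha chain of vessel and nerve basement membranes that embryonic muscle also uses, had signals of 8.67, 7.49 and 7.49 in Pax7-GFP cells, against 5.60, 5.85 and 6.01 in ES cells. All Pax7-GFP arrays were above all ES arrays, and replicate 1 stood well above the other Pax7-GFP arrays. The log2 fold change was 2.06 (SE 0.30, adjusted p = 0.000641), and 1.67 without that array. Of the endothelial markers, *Cdh5*, *Tie1*, *Emcn* and *Cldn5* were also highest on that array among Pax7-GFP cells, *Pecam1*, *Kdr* and *Tek* were lowest, and *Vwf* lay between. *Cdh5* had 7.49, 6.54 and 6.39 in Pax7-GFP cells, against 5.26, 5.59 and 5.35 in ES cells. *Pecam1* had 5.71, 6.19 and 6.01 in Pax7-GFP cells. The mean of all 8 endothelial markers was 5.54, 5.58 and 5.47 in Pax7-GFP cells. Their part in the *Lama4* values was not tested.

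*Lama1*, the alpha chain of the first basement membranes of the embryo, had signals of 5.91, 5.66 and 5.63 in Pax7-GFP cells, against 7.73, 7.88 and 7.90 in ES cells. It was lower in every Pax7-GFP array, with a log2 fold change of -2.10 (SE 0.10), a 4.29-fold difference (adjusted p = 1.27e-06). *Lama3*, the alpha chain of the epithelial laminin that anchors skin, had 5.98, 6.46 and 6.40 in Pax7-GFP cells, against 7.36, 7.50 and 7.65 in ES cells. Again no array overlapped, and the log2 fold change was -1.22 (SE 0.14, adjusted p = 0.000186). *Lama5*, a widely expressed alpha chain also made by ES cells, had 9.12, 8.36 and 8.56 in Pax7-GFP cells, against 8.95, 9.02 and 9.09 in ES cells. The groups overlapped through Pax7-GFP replicate 1 and the gene was not called, at -0.35 (95% confidence interval -0.75 to 0.06).

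**Figure D2:**
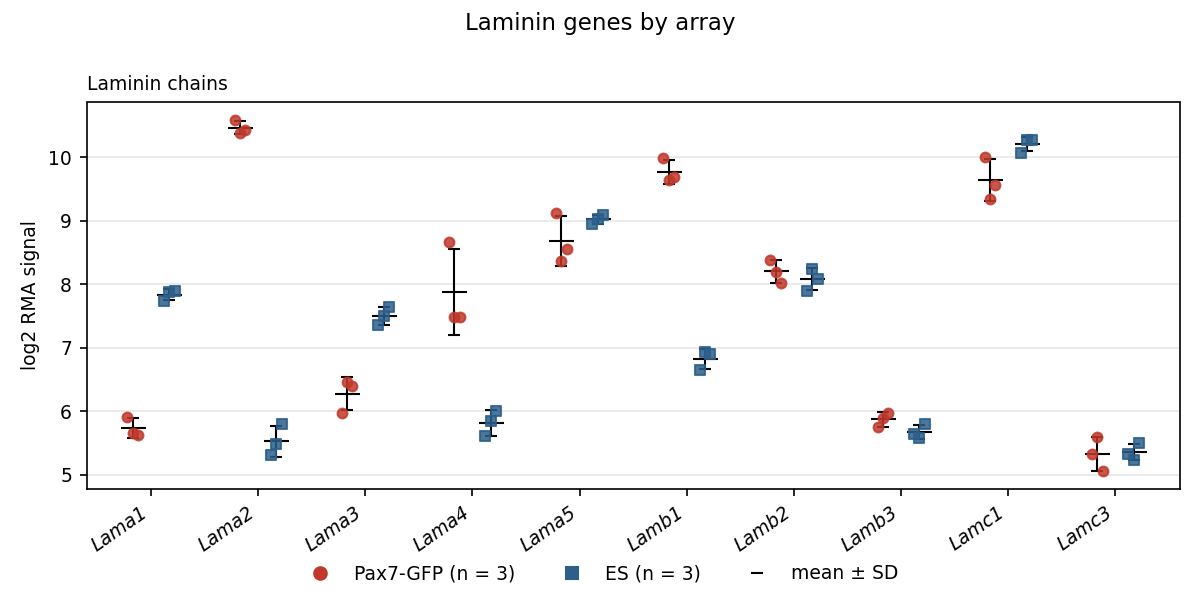
Log2 RMA signal of the 10 laminin genes on each array, Pax7-GFP as circles on the left and ES as squares on the right of each gene, with mean and SD (n = 3). *Lama2*, *Lama4* and *Lamb1* lie higher and *Lama1* and *Lama3* lower in Pax7-GFP cells, with no overlap between groups. Heights of different genes are not comparable, because they come from different probes.

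The beta and gamma chains complete the trimer. *Lamb1*, the beta chain shared by the early embryonic laminin and that of the muscle fibre, had signals of 9.98, 9.64 and 9.68 in Pax7-GFP cells, against 6.65, 6.93 and 6.90 in ES cells. The groups were well separated, 2.94 apart on the log2 scale (SE 0.12), or 7.69-fold (adjusted p = 5.43e-07). *Lamb2*, the beta chain concentrated at the neuromuscular synapse, differed by 0.12 (95% confidence interval -0.17 to 0.41) and its groups overlapped. *Lamb3*, the epithelial beta chain, differed by 0.20 (-0.02 to 0.43), with levels of 5.87 ± 0.11 in Pax7-GFP cells and 5.67 ± 0.11 in ES cells (SD, n = 3 each), near the array median.

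*Lamc1*, the gamma chain of nearly all basement membrane laminins, had 10.01, 9.35 and 9.57 in Pax7-GFP cells, against 10.08, 10.28 and 10.28 in ES cells. Every Pax7-GFP array was below every ES array, but the difference of -0.57 (SE 0.16, adjusted p = 0.0222) fell short of 2-fold. *Lamc3*, a gamma chain of nervous tissue and other sites, differed by -0.03 (95% confidence interval -0.35 to 0.30). The 3 chains of the main muscle laminin (*Lama2*, *Lamb1* and *Lamc1*) therefore had log2 differences of 4.94, 2.94 and -0.57, and those of the early embryonic laminin (*Lama1*, *Lamb1* and *Lamc1*) had -2.10, 2.94 and -0.57.

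Integrin alpha subunits decide which matrix an integrin binds. Of 17 genes 5 rose, 0 fell and 12 were not called, 3 of them with an adjusted p under 0.05 but less than 2-fold apart. The share called was 29.4%, against 14.5% of all genes. At an unadjusted p under 0.05 in limma, 7 alpha genes were higher and 2 lower, against 5127 and 5304 of all 22180 genes. Among the 3 laminin receptors only *Itga7* was called, a share of 33.3%, against the same 14.5%. *Itga7*, the main laminin receptor subunit of skeletal muscle, had signals of 10.11, 9.90 and 10.12 in Pax7-GFP cells, against 6.25, 6.30 and 6.23 in ES cells. Both groups were tight and far apart, 3.78 apart on the log2 scale (SE 0.089), or 13.8-fold, and an adjusted p of 3.21e-08.

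*Itga6*, a laminin receptor subunit of many stem cells and epithelia, had 8.66, 8.55 and 8.76 in Pax7-GFP cells, against 8.73, 8.88 and 8.75 in ES cells. The groups overlapped narrowly, and the 95% confidence interval of the difference ran from -0.34 to 0.07. *Itga3*, a laminin receptor subunit of epithelia, had 7.45, 6.47 and 6.46 in Pax7-GFP cells, against 7.07, 7.25 and 7.21 in ES cells. Replicate 1 of the Pax7-GFP cells lay above all ES arrays and the other replicates below them. *Itga3* was not called, at -0.38 (95% confidence interval -0.95 to 0.19), or at -0.71 (adjusted p = 0.000288) without that array, where it passed the p threshold but not the 2-fold minimum.

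Collagen receptors came next. *Itga1*, which favours the collagen of basement membranes, had 7.66, 7.55 and 7.11 in Pax7-GFP cells, against 5.51, 5.40 and 5.36 in ES cells. Its groups did not overlap, and it rose by 2.02 (SE 0.14, adjusted p = 1.01e-05). *Itga2*, which favours fibrillar collagen, had 6.92, 6.50 and 6.18 in Pax7-GFP cells, against 5.12, 5.05 and 5.23 in ES cells. It too was higher on every Pax7-GFP array, by 1.40 (SE 0.17, adjusted p = 0.000251). *Itga1* and *Itga2* are direct neighbours on chromosome 13 when protein-coding genes are ordered by start. *Itga11*, a fibrillar collagen receptor subunit of fibroblasts, went the other way, at -0.41 (SE 0.13, adjusted p = 0.0366), short of 2-fold, with levels of 5.75 ± 0.16 in Pax7-GFP cells and 6.16 ± 0.22 in ES cells (SD, n = 3 each).

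*Itga4*, whose product binds fibronectin and the cell surface protein VCAM1, had 8.49, 7.82 and 8.48 in Pax7-GFP cells, against 5.65, 5.13 and 5.62 in ES cells. The gap between groups exceeded the spread within either, and the difference was 2.80 (SE 0.21) on the log2 scale, or 6.96-fold (adjusted p = 1.41e-05). *Itga9*, a close relative that binds tenascin-C and VCAM1, was higher on every Pax7-GFP array, by 0.64 (SE 0.14, adjusted p = 0.00529), below the 2-fold minimum.

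Among 4 receptors that bind the RGD peptide of fibronectin, vitronectin and related proteins, 1 rose. This share of 25% stands against 7.34% of all genes, in a list of only 4. *Itga8*, a receptor subunit for nephronectin, had 6.54, 6.25 and 5.91 in Pax7-GFP cells, against 5.10, 5.02 and 4.91 in ES cells. All Pax7-GFP arrays were above all ES arrays, by 1.22 on average (SE 0.15, adjusted p = 0.000287). *Itga5*, the classic fibronectin receptor subunit, had 9.54, 8.45 and 8.67 in Pax7-GFP cells, against 7.95, 8.23 and 8.43 in ES cells. Its groups did not overlap, as in 51.9% of all genes, but they nearly touched, and the difference of 0.69 did not pass the test (adjusted p = 0.0728, 95% confidence interval 0.08 to 1.29 before adjustment). Without Pax7-GFP replicate 1 it was 0.36 (adjusted p = 0.0779). *Itgav*, the common partner of several beta subunits, differed by -0.23 (-0.47 to 0.02) at its brighter probe set and by -0.12 at the dimmer one. *Itga2b*, the platelet fibrinogen receptor subunit, differed by 0.23 (-0.07 to 0.52).

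The 5 leukocyte alpha subunit genes (*Itgad*, *Itgae*, *Itgal*, *Itgam* and *Itgax*) had 0 calls in limma, against 14.5% of all genes. With 5 genes this count says little. Their mean levels lay between 4.25 and 5.68 in Pax7-GFP cells and between 4.06 and 6.04 in ES cells. *Itgal* alone had an adjusted p under 0.05, at -0.55 (SE 0.076, adjusted p = 0.000496). No other of the 5 had an unadjusted p under 0.05, and the other 4 differed by -0.03 to 0.19. *Itgam*, *Itgax* and *Itgad* lie side by side on chromosome 7 in the order of protein-coding genes.

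**Figure D3:**
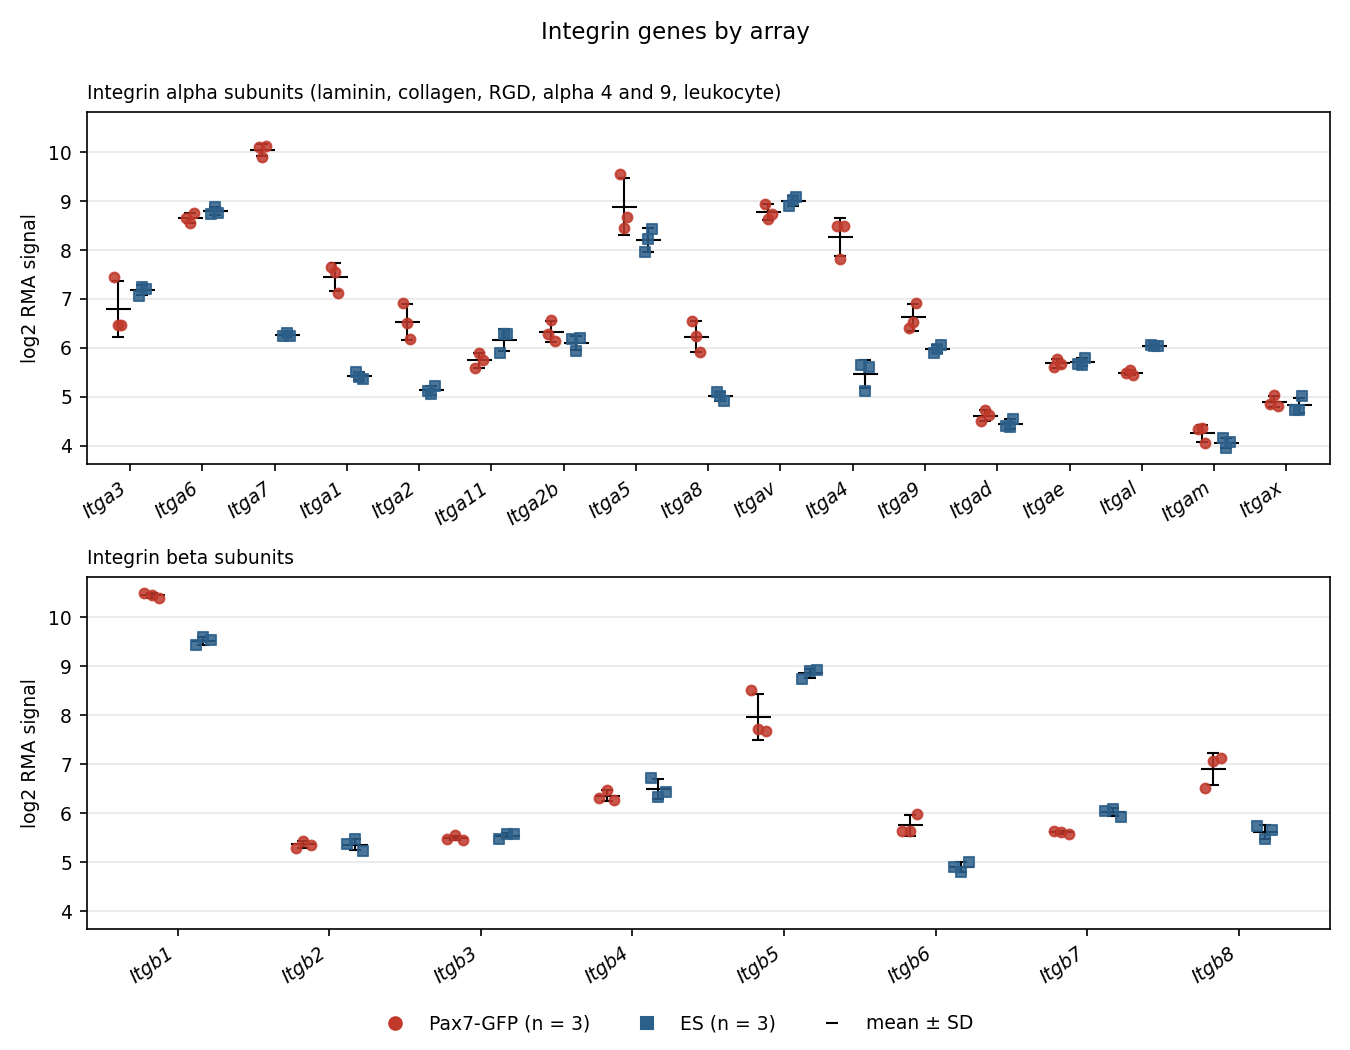
Log2 RMA signal of the 25 integrin genes on each array, Pax7-GFP as circles on the left and ES as squares on the right of each gene, with mean and SD (n = 3). Of the alpha genes *Itga7*, *Itga4*, *Itga1*, *Itga2* and *Itga8*, and of the beta genes *Itgb8*, passed both thresholds. Heights of different genes are not comparable.

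Beta subunits are shared by several alpha subunits. Of 8 genes 1 rose, 0 fell and 7 were not called, 4 of them under that p with a smaller difference. The share called was 12.5%, against 14.5% of all genes. At an unadjusted p under 0.05 in limma, 3 beta genes were higher and 2 lower. Of all 22180 genes, 5127 were higher and 5304 lower at that p. *Itgb1*, the partner of all the alpha subunits that rose, had 10.49, 10.47 and 10.39 in Pax7-GFP cells, against 9.43, 9.59 and 9.54 in ES cells. The groups were tight and separate, and the difference of 0.93 (SE 0.082, adjusted p = 3.93e-05) lay just below 2-fold, with a 95% confidence interval of 0.74 to 1.12. With quantile normalization repeated it stood at 1.01 and was called.

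*Itgb8*, which pairs with the subunit of *Itgav* and activates latent TGF-beta, had 6.52, 7.06 and 7.12 in Pax7-GFP cells, against 5.73, 5.47 and 5.67 in ES cells. It rose by 1.28 (SE 0.16, adjusted p = 0.000303), with replicate 1 lowest among the Pax7-GFP arrays. *Itgb5*, a vitronectin receptor subunit, had 8.51, 7.71 and 7.69 in Pax7-GFP cells, against 8.74, 8.91 and 8.92 in ES cells. No array overlapped, but the difference of -0.89 (SE 0.21, adjusted p = 0.00890) was short of 2-fold. Without Pax7-GFP replicate 1 it stood at -1.16 (adjusted p = 1.64e-05) and was called lower, so that 1 beta gene fell.

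*Itgb6*, an epithelial activator of TGF-beta, was higher on every Pax7-GFP array by 0.85 (SE 0.12, adjusted p = 0.000591), with levels of 5.75 ± 0.21 in Pax7-GFP cells and 4.91 ± 0.11 in ES cells (SD, n = 3 each). *Itgb7*, a leukocyte subunit, was lower, at -0.41 (SE 0.081, adjusted p = 0.00360). Both were below the 2-fold minimum. The platelet and endothelial subunit gene *Itgb3*, the hemidesmosome subunit gene *Itgb4* and the leukocyte subunit gene *Itgb2* differed by -0.05, -0.14 and 0.0035, all with overlapping groups. Their 95% confidence intervals lay within -0.41 and 0.22.

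**Figure D4:**
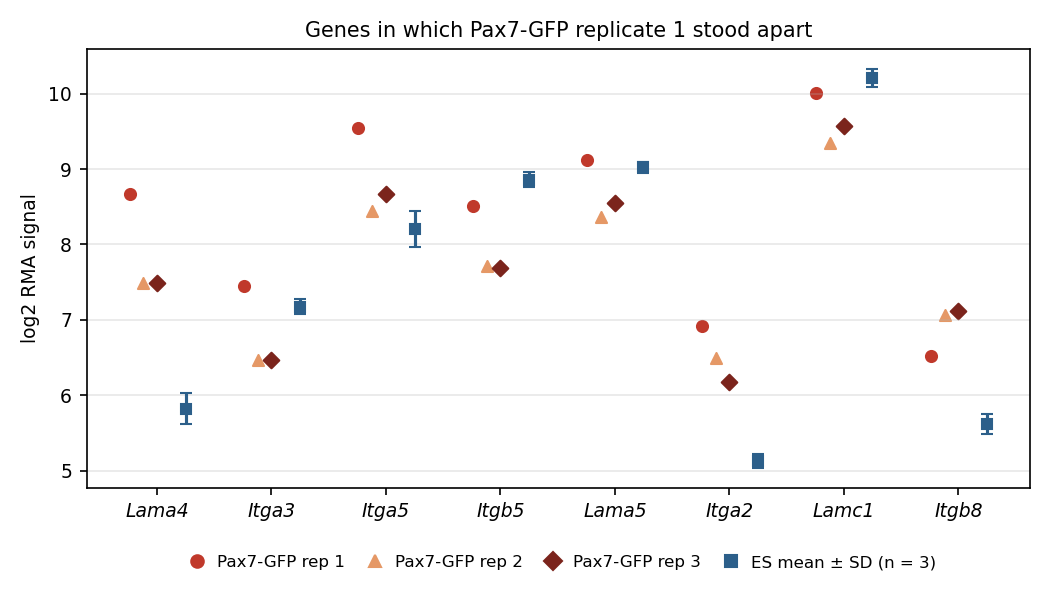
Log2 RMA signal on each Pax7-GFP array, with the mean and SD of the ES arrays (n = 3), for the 8 genes whose Pax7-GFP replicate 1 differed from the mean of replicates 2 and 3 by at least 0.5. Replicate 1 is highest in 7 of them and lowest in *Itgb8*.

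The Pax7-GFP arrays varied more among themselves than the ES arrays in these genes, with a median SD of 0.19 in Pax7-GFP cells and 0.10 in ES cells, and likewise over all genes, with 0.14 in Pax7-GFP cells and 0.084 in ES cells. Replicate 1 was at least 0.5 above the mean of the other Pax7-GFP arrays in 7 of the 35 genes, or 20.0%, and in 5.76% of all genes. It was as far below in 1 of the 35, or 2.86%, and in 2.46% of all genes. The 7 genes were *Lama4*, *Itga3*, *Itga5*, *Itgb5*, *Lama5*, *Itga2* and *Lamc1*, and the limit of 0.5 was chosen after their values were seen. On the same arrays the fibroblast markers averaged 8.66, 8.35 and 8.20, and the skeletal muscle markers 10.03, 9.76 and 10.16. Replicate 1 was also highest for the epithelial markers (6.61, 6.45 and 6.39) and the pluripotency markers (5.73, 5.71 and 5.55). It was not highest for the haematopoietic, endothelial, extraembryonic endoderm, smooth muscle or neural crest markers. The part of cells with any of these markers in this spread was not tested. Without replicate 1, 12 of the 35 genes were called, with 9 higher and 3 lower.

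Integrin ligands, a list of matrix proteins and cell surface proteins, were mixed. Of 14 ligand genes measured 4 were higher and 1 lower, and 6 of the other 9 had an adjusted p under 0.05 with a smaller difference (median over the list 0.50). *Ccn1*, a matrix protein of injury and growth factor response, had 12.20, 12.06 and 12.06 in Pax7-GFP cells, against 9.12, 9.42 and 9.45 in ES cells. It rose by 2.78 (SE 0.11, adjusted p = 4.17e-07), and tenascin-C, encoded by *Tnc*, by 2.22 (SE 0.16, adjusted p = 1.09e-05), each with groups well apart. *Postn* and *Emilin1*, 2 further matrix proteins, stood at 1.09 and 1.08, close to the threshold. *Icam1*, a cell surface ligand of leukocyte integrins, was the only ligand called lower and fell by 1.69 (SE 0.14, adjusted p = 3.09e-05). Without Pax7-GFP replicate 1, 2 ligands were higher and 2 lower, since *Emilin1* stood at 0.95, *Postn* at 0.95 and *Mfge8* at -1.09. There were also 2 lower ligands without Pax7-GFP replicate 2 and without ES replicate 1, where *Thbs1* stood at -1.16 and -1.01. *Vcam1*, at 0.98 and not called, was called higher without Pax7-GFP replicate 3 (1.04) or ES replicate 2 (1.09). The fibronectin gene *Fn1* was lower on every Pax7-GFP array, at -0.56 (limma, adjusted p = 0.00233), short of 2-fold.

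The adhesion list holds proteins that link integrins to actin, beside kinases, tetraspanins and other partners. Of this list 35.7% was called, against 14.5% of all genes. Of 28 measured 7 were higher and 3 lower, and 11 of the other 18 were under the p threshold with a smaller difference (median 0.26). *Zyx*, a protein of actin-bound adhesions, had 10.33, 10.51 and 10.75 in Pax7-GFP cells, against 8.02, 8.23 and 8.33 in ES cells. It rose by 2.34 (SE 0.13), *Parva*, which binds integrin-linked kinase, by 2.05 (SE 0.12), *Tln2*, a muscle-rich talin, by 1.59 (SE 0.15), and *Tns2*, a tensin, by 1.41 (SE 0.13), with adjusted p-values of 2.73e-06 to 5.99e-05. *Tes*, an adhesion LIM protein, fell by 1.82 (SE 0.11, adjusted p = 4.17e-06). *Cd9*, a tetraspanin that associates with integrins, and the kinase gene *Src* lay near the threshold, at -1.07 and -1.01. Without Pax7-GFP replicate 3 they stood at -0.95 and -0.86, leaving 1 lower gene. *Src* also lost its call without ES replicate 2 or 3, at -0.99 each.

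The molecules that laminin meets in the basement membrane were higher or not called. Of 18 measured 7 were higher and 0 lower, and 4 of the other 11 were under the p threshold with a smaller difference (median over the list 0.27). Of those 4, *Nid1*, *Agrn* and *Sdc4* were lower, at -0.68, -0.57 and -0.43, and *Sdc1* was higher, at 0.86. At an unadjusted p under 0.05, 9 were higher and 3 lower in limma, against 5127 and 5304 of all 22180 genes. *Col4a2* and *Col4a1*, the standard pair of collagen IV chains, rose by 2.32 (SE 0.13) and 2.26 (SE 0.14), from a list in which the other 4 collagen IV genes had 0 calls. *Col4a2* had 8.48, 8.19 and 8.27 in Pax7-GFP cells, against 5.73, 6.11 and 6.14 in ES cells. *Ntn4*, a netrin that binds laminin, rose by 2.08 (SE 0.29), with 8.45, 7.22 and 7.34 in Pax7-GFP cells, against 5.71, 5.46 and 5.60 in ES cells, and again replicate 1 was highest. *Fbln1*, a fibulin of basement membranes, rose by 1.85 (SE 0.10). These 4 genes had adjusted p-values between 2.86e-06 and 0.000523. Without Pax7-GFP replicate 3, 6 genes of the list were higher, since *Sdc3* went from 1.17 to 0.997, just under 2-fold. The share called was 35.7%, 35.7% and 38.9% in the ligand, adhesion and basement membrane lists, against the 14.5% of all genes.

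**Figure D5:**
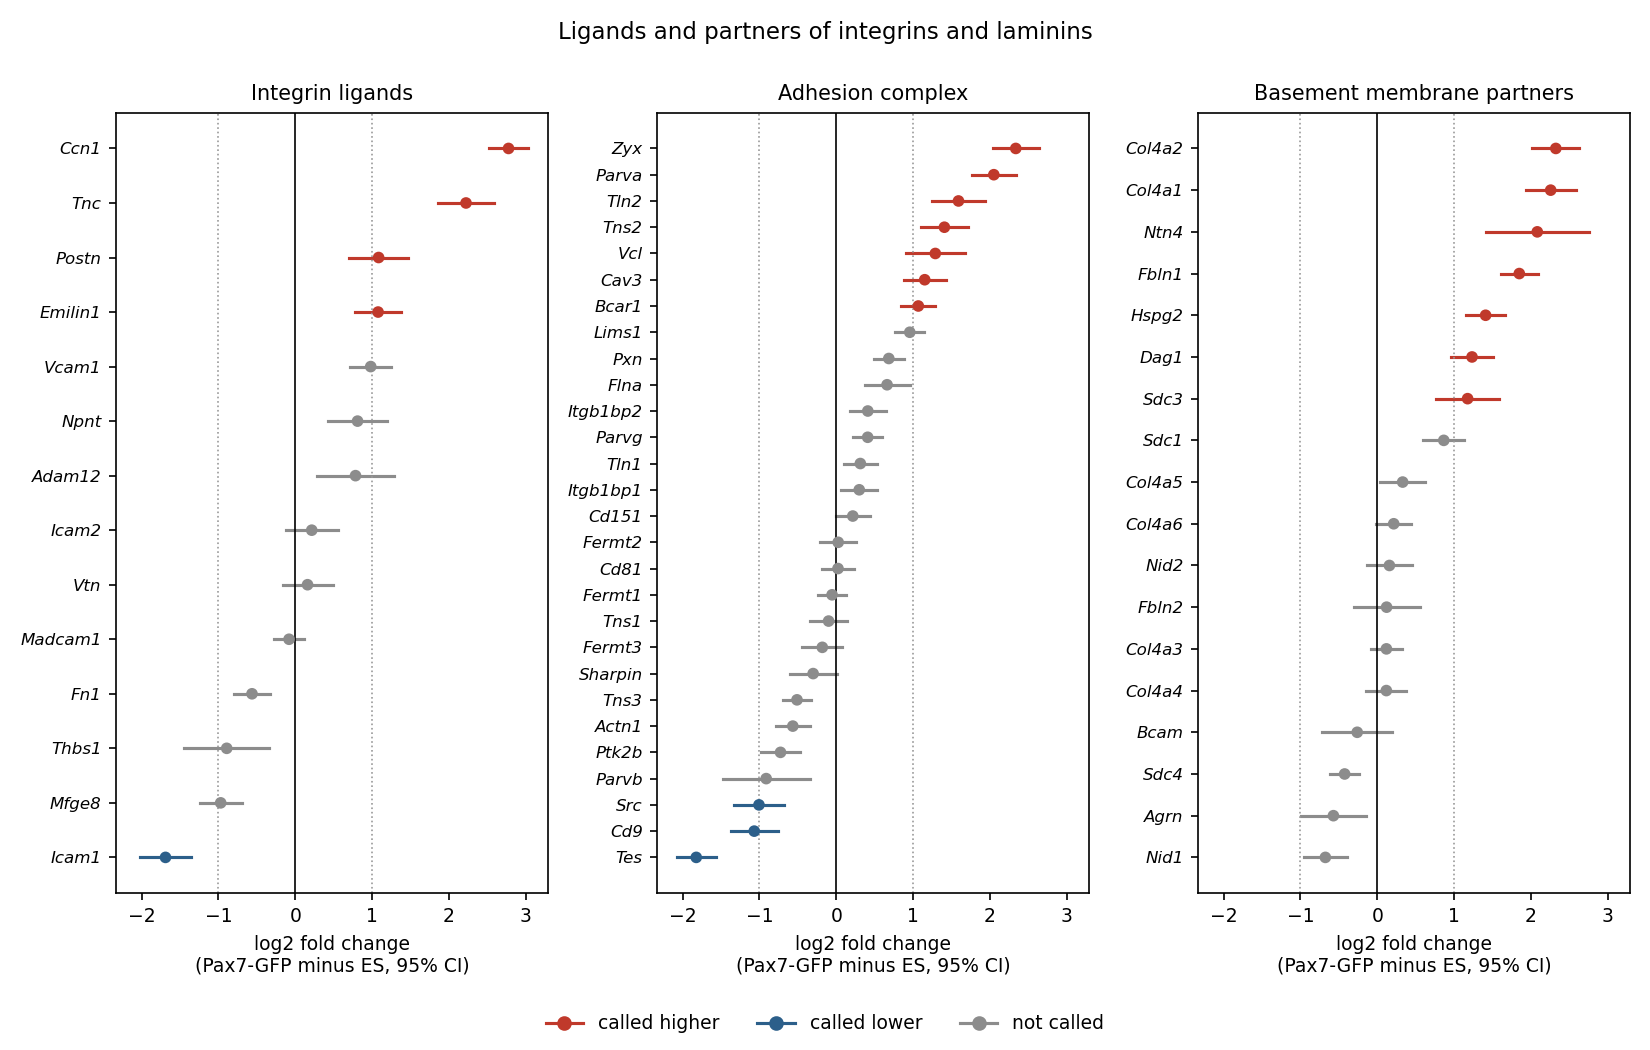
Log2 fold change, Pax7-GFP minus ES, with 95% confidence interval (limma, n = 3 arrays per group), of the measured genes for integrin ligands (14), the adhesion complex (28) and basement membrane partners (18). Dotted lines mark a 2-fold difference, and the basement membrane list has 0 genes called lower.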

How the data were processed

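Biotin-labelled cRNA from 6 samples was hybridised to 1 array each. The deposited values are log2 signals that the authors made with RMA (background correction, normalization between arrays and summary of probes) in R 2.12.1, per the submitters' processing notes. For the probe set definition and the genome build, the sources used here give nothing. Titles gave groups and replicate numbers and name the replicates biological. Since no label says how cultures were separated, p-values measure only the spread among these samples.

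Of 41345 rows, 23521 carried 1 gene symbol in GEO's platform annotation of 2022, 1814 carried several and 16010 were unnamed. Each gene was represented by its probe set of highest mean (22180 genes, no filter on dim genes). No detection calls exist, so a low gene cannot be called absent, and RMA compresses folds near background. Pax7-GFP minus ES was fitted over all genes with limma 3.58.1 in R 4.3.3 (lmFit, eBayes, two-sided), with Benjamini-Hochberg adjustment. Levels are mean ± SD over 3 arrays, and their number limits the precision. The fit was also run on simulated data with the same SD in both groups, so that run does not cover the unequal spread seen here. Every member was named. From the ligand, adhesion and basement membrane lists the 4 largest called rises and 3 largest called falls without overlap were named, and from each marker list the largest called change in each direction. Other genes named were chosen after their values were seen. The members and lists were chosen with earlier results of these data known. Alternatives changed scaling, low values, probe set rule, unit, fold threshold, variance model and array weights, added a replicate block, and left out single arrays. No label says that same-numbered samples were paired, so the main fit did not pair them.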

Additional observations from a re-analysis of the deposited data

How the results depend on the processing

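The 11 calls among integrin and laminin genes were kept in direction by all alternatives other than the stricter folds and the filter on dim genes. Leaving out genes below the median level removed *Itga2* and *Itga8*, so 3 integrin alpha genes were higher. Without a minimum fold 19 genes passed, 7 of them lower, with 2 integrin alpha genes lower and 3 beta genes higher and 2 lower. At a 4-fold minimum, and likewise in a limma test against 2-fold, 7 passed, 1 of them lower (a laminin), with 3 alpha and 0 beta genes higher. Quantile normalization repeated made 2 beta genes higher, through *Itgb1* at 1.01. Array weights made 1 beta gene lower, *Itgb5* at -1.02. Without single arrays 0 to 1 beta genes were lower, 2 to 5 ligands higher, 1 to 2 ligands lower and 1 to 4 adhesion genes lower. In the same fits 6 to 7 basement membrane partners were higher. Signs turned only for genes near 0, none of them called: *Itgb2* stood at -0.020 with arrays centred on their medians and -0.022 with quantile normalization repeated. Without single arrays *Itgb2* ranged from -0.059 to 0.058, *Itgae* from -0.074 to 0.018 and *Lamc3* from -0.16 to 0.11. No paired reading was used, since no label pairs same-numbered samples. Deviations of same-numbered samples correlated at -0.11, -0.22 and 0.0069, and those of differently numbered samples at -0.077 to 0.20. With so few arrays these values cannot settle whether samples were paired. With the replicate number as a block 11 genes were called, the same 11, and 3213 of all genes, against 3212. Background correction could not be varied from these values.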

Other observations

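Rows that name a member beside another gene were left out of the comparison. The row naming *Itgb4* and *B230344G16Rik* had signals of 5.15, 5.44 and 5.20 in Pax7-GFP cells, against 5.35, 5.17 and 5.31 in ES cells, and the row naming *Cerkl* and *Itga4* had 4.97, 5.01 and 5.09 in Pax7-GFP cells, against 5.06, 4.93 and 4.90 in ES cells. In both rows the groups overlapped, so the row shared with *Cerkl* did not show the difference of 2.80 seen at the probe set of *Itga4* alone. The dimmer probe set of *Itgav* stood at 4.36 ± 0.066 in Pax7-GFP cells and 4.49 ± 0.13 in ES cells (SD, n = 3 each).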
